A study of Rattus norvegicus with 2 samples.

Results

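The 10 genes of this group encode transcription factors of the Mullerian duct and of mesenchymal lineages. They were examined in cultured rat myometrial progenitor cells, the precursors of the uterine muscle layer. The genes were chosen by name (Nr2f1, Nr2f2, Wt1, Osr1, Gata2, Gata4, Gata6, Twist1, Twist2 and Tcf21). All 10 were found among the 17327 genes of the authors' deposited table. The study set cells labelled DES-exposed against cells labelled VEH-exposed, which in studies of developmental exposure commonly stand for diethylstilbestrol, a synthetic estrogen, and for its vehicle. Each group was 1 RNA sequencing library of myometrial progenitor cells, pooled from 5 animals and labelled with passages 1 to 3. The samples are labelled Rattus norvegicus, while the series' own text calls the cells murine. No source used here gives the strain, age, dose or time of exposure.

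The Mullerian ducts form from the lining of the body cavity at the urogenital ridge, and the mesenchyme around them gives rise to the endometrial stroma and the myometrium. Zinc finger factors such as WT1 and OSR1 act early in this ridge. COUP-TF nuclear receptors, GATA factors and basic helix-loop-helix (bHLH) factors such as TWIST1 and TCF21 later mark or direct mesenchymal, stromal and smooth muscle fates, as known mostly from mouse work.

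The table gives a mean, a fold change and its standard error per gene but no value per library, so the reads of both libraries were recovered from these numbers. The file does not say which group is on top of the fold change. The library whose reads raise it is called library A here and the other library B. Since A may be either group, no direction below can be assigned to DES or to VEH. With 1 library per group (n = 1) there was no replicate check and no test. Library A held 106599579 and library B 104793348 reads in listed genes. Intervals are 95% Clopper-Pearson intervals of the share of reads, which cover counting error only, and the spread between animals or cultures is unknown. All 8 smooth muscle markers had many reads in both libraries, from 18879 (Smtn) to 566718 (Tagln) in library A and from 11118 (Smtn) to 279748 (Acta2) in library B. Among the markers of other cell types, Ptprc (blood cells), Cdh1 (epithelium) and Kdr and Emcn (endothelium) were listed at 0. Of the endothelial genes, Pecam1 had 22 reads in library A and 189 in library B, Vwf 23 and 108, and Tek 553 and 67. Of the blood cell genes, Csf1r had 22 reads in library A and 270 in library B, and Cd68 271 and 54. Other markers of the same lists were read: the endothelial genes Cdh5 and Esam had 2 and 73 reads in library A and 2166 and 5582 in library B, the blood cell gene Was had 0 in library A and 4194 in library B, and the keratin gene Krt8 had 2473 in library A and 1431 in library B.

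Of the 10 factors, Tcf21 and Twist2 exceeded 2-fold upward in library A against library B, and Nr2f1, Nr2f2 and Twist1 exceeded it downward. Wt1, Osr1, Gata2 and Gata6 lay within 2-fold. Gata4 was hardly read and stood below the minimum mean of 20 normalised reads (reads divided by the library's size factor) that was set for a call. Among all 11212 genes above that minimum, 13.9% were higher in library A by 2-fold or more and 12.7% were lower by as much. Read against these shares, the 2 higher and 3 lower of 9 factors are no result about the group as a whole. The median log2 ratio of the 9 factors was -0.30, against 0.01 over all genes. This median is the value of Gata2, and setting the 0 reads of Tcf21 to a floor of 3 reads cannot move it. In bulk RNA, fewer cells of a type and less RNA per cell cannot be told apart.

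**Figure D1:**
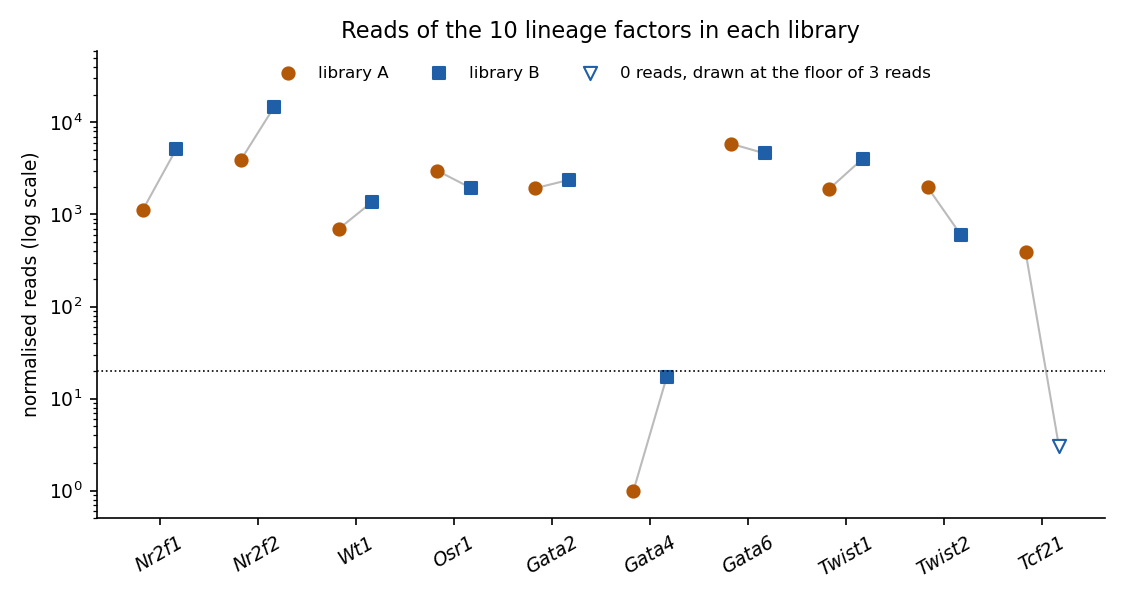
Normalised reads of the 10 factors on a log axis in library A (orange circles) and library B (blue squares), 1 library each. The dotted line marks the minimum mean of 20. Tcf21, with 0 reads in library B, is drawn there as an open triangle at the floor of 3 reads, and Gata4 lies under the dotted line in both libraries.

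The promoters of 8 of the 10 factors were found in RefSeq's GRCr8 annotation (all but Nr2f2 and Gata4). The 250 bases before the annotated start are shown for the called factors among them and for Osr1, because they differ widely in CpG content, a feature on which DNA methylation in promoters depends. Each CG is in capitals. The windows are chr2:9785925-9786174 on the minus strand (Nr2f1), chr6:56402059-56402308 (Twist1), chr9:99821992-99822241 (Twist2), chr1:24520249-24520498 (Tcf21) and chr6:38097401-38097650 (Osr1), the last 4 on the plus strand.
Nr2f1: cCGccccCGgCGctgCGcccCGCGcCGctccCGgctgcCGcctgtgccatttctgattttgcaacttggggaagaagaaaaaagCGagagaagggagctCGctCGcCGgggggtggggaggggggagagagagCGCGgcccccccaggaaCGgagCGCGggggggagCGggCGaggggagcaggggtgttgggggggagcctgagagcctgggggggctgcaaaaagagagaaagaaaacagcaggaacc
Twist1: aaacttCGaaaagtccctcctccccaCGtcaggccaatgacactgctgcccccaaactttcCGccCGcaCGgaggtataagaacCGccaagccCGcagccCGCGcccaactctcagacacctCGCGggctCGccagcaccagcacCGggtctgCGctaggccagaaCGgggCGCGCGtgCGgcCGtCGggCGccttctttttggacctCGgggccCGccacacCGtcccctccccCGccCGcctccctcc
Twist2: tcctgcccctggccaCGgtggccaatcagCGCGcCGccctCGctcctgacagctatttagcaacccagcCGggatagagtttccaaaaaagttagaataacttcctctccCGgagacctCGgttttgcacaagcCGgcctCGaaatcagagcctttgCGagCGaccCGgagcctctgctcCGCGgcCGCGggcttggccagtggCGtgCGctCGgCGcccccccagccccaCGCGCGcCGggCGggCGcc
Tcf21: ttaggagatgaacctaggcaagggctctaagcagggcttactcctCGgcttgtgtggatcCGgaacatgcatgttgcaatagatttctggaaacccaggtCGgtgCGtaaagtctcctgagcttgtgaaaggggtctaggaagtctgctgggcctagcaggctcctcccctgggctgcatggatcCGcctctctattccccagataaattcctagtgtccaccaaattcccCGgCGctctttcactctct
Osr1: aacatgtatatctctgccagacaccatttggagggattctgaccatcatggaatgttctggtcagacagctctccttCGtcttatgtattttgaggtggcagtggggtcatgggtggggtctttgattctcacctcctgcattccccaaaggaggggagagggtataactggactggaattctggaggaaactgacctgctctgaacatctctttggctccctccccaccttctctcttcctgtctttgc

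The Twist1 and Twist2 windows held 27 CG each, as did that of Wt1, and 7.69% of all 33469 promoters held as many or more. Nr2f1 had 20, Gata2 13, Gata6 9 and Tcf21 7 CG, against a median of 5 over all promoters. The Osr1 window had 1 CG, and 92.2% of promoters had at least that number. Methylation was not measured in the data used here.

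The same windows were searched on both strands for short motifs. The GATA core GATAA occurred in 1 of the 8, that of Tcf21, 48 bases before the start, against 23.5% of all promoters. The nuclear receptor core element AGGTCA, which COUP-TFs and estrogen receptors can bind, occurred in 1, that of Osr1, where it lies on the other strand as TGACCT, 58 bases before the start. It was found in 14.1% of all promoters. The E-boxes CAGATG or CATATG (16.9% of promoters) and CAGCTG (12.0%), the motif GCGGGGGCG (2.45%) and TATAAA (12.9%) occurred in 0 of the 8 windows.

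Both COUP-TF genes had fewer reads in library A. Nr2f1 encodes COUP-TFI, an orphan nuclear receptor best known from neural development, and had 1142 reads in library A and 5114 in library B, a 4.56-fold lower level with an interval of 4.28 to 4.87. Nr2f2 encodes COUP-TFII, which mouse work places in the uterine stroma, in veins and in the mesenchyme of many organs. It had 3984 reads in library A and 14748 in library B (3.77-fold lower, interval 3.64 to 3.90). For Nr2f1, 4.38% of all genes above the minimum had a ratio as low or lower, and for Nr2f2 5.46%. The pair's summed normalised reads were 3.95-fold lower. Nr2f1 made up 22.3% (interval 21.1 to 23.4) of the pair's reads in library A and 25.7% (25.1 to 26.4) in library B, so the split between the genes differed little beside the change in their sum.

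The urogenital ridge factors stayed within 2-fold. Wt1, a zinc finger factor of the mesothelium, gonad and kidney, had 710 reads in library A and 1365 in library B. It was 1.96-fold lower, and its interval of 1.79 to 2.15 spans the 2-fold limit. Osr1, a zinc finger factor of the intermediate mesoderm, had 3020 reads in library A and 1932 in library B (1.54-fold higher, interval 1.45 to 1.63). A ratio at least as high as that of Osr1 was found in 21.8% of all genes. The intervals of both genes exclude equal levels by counting error alone, which says nothing of the spread between cultures.

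Among the GATA zinc finger factors, Gata6, which takes part in the differentiation of smooth muscle and endoderm, had 5904 reads in library A and 4565 in library B (1.27-fold higher, interval 1.22 to 1.32). Gata2, a factor of blood progenitors and endothelium that also acts with the progesterone receptor in the mouse uterus, had 1946 reads in library A and 2351 in library B (1.23-fold lower, interval 1.16 to 1.31). Gata6 and Gata2 thus differed least of the 9 factors above the minimum. Gata4, a factor of heart and gonad, had 1 read in library A and 17 in library B, a ratio of 17.3-fold lower with an interval of 2.71 to 723, and no call was made on so few reads. Gata2 lies on chromosome 4, whose 587 genes above the minimum had a median log2 ratio of -0.38. The 50 genes nearest to Gata2, 25 on each side, had a median of -0.51, and Gata2 itself stood at -0.30. For the other 9 factors the median of the nearest genes lay between -0.05 (Nr2f1) and 0.34 (Tcf21). Whether the lower level of this part of chromosome 4 plays a part in the Gata2 value was not tested.

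The bHLH factors included both genes of the 10 that were called higher. Twist1, which the mouse needs in head and limb mesenchyme, had 1925 reads in library A and 4008 in library B (2.12-fold lower, interval 2.01 to 2.24). Its close paralog Twist2, also called Dermo1, had 1999 reads in library A and 595 in library B (3.30-fold higher, interval 3.01 to 3.62). The paralogs thus went in opposite directions, and their summed normalised reads were 3889 in library A and 4645 in library B, 1.19-fold lower. Twist2 made up 50.9% of the pair's reads in library A (interval 49.4 to 52.5) and 12.9% in library B (12.0 to 13.9). These shares are of reads, not corrected for transcript length, and do not depend on how the libraries were scaled. Single reads of 36 bp can be shared between close paralogs, and the extent of this was not tested.

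**Figure D2:**
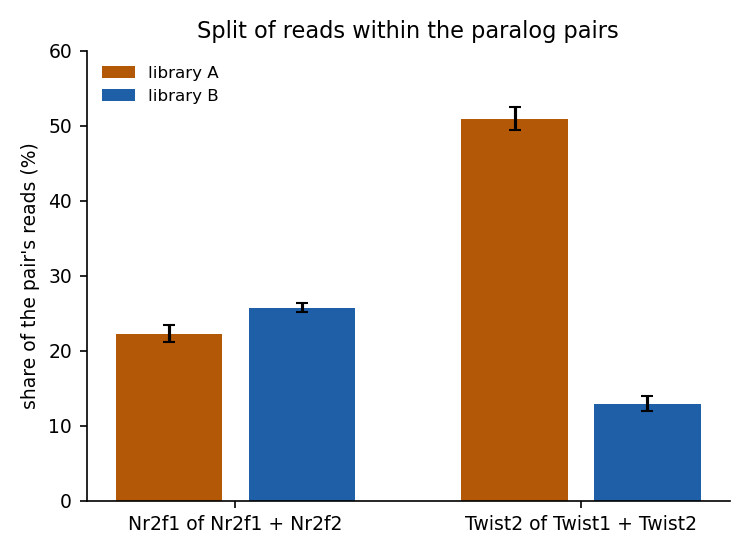
Share of the pair's reads, in percent, that fell on Nr2f1 (left) and on Twist2 (right), in library A (orange) and library B (blue), with 95% exact binomial intervals as error bars. The Nr2f1 share was 22.3% in library A and 25.7% in library B, while the Twist2 share was 50.9% in library A and 12.9% in library B.

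Tcf21, also called capsulin or epicardin, is a bHLH factor of visceral mesenchyme and fibroblast precursors in the mouse. It had 394 reads in library A and 0 in library B. Against a floor of 3 reads in library B it was 129-fold higher. The lower limit of its interval was 104-fold, and there was no upper limit. Of all genes above the minimum, 0.491% had a log2 ratio as high or higher. For a gene with 0 reads in library B, the log2 ratio depends on the pseudocount of 1 normalised read. A gene read in library A only was found for 1.43% of all genes above the minimum, and one read in library B only for 0.187%.

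**Figure D3:**
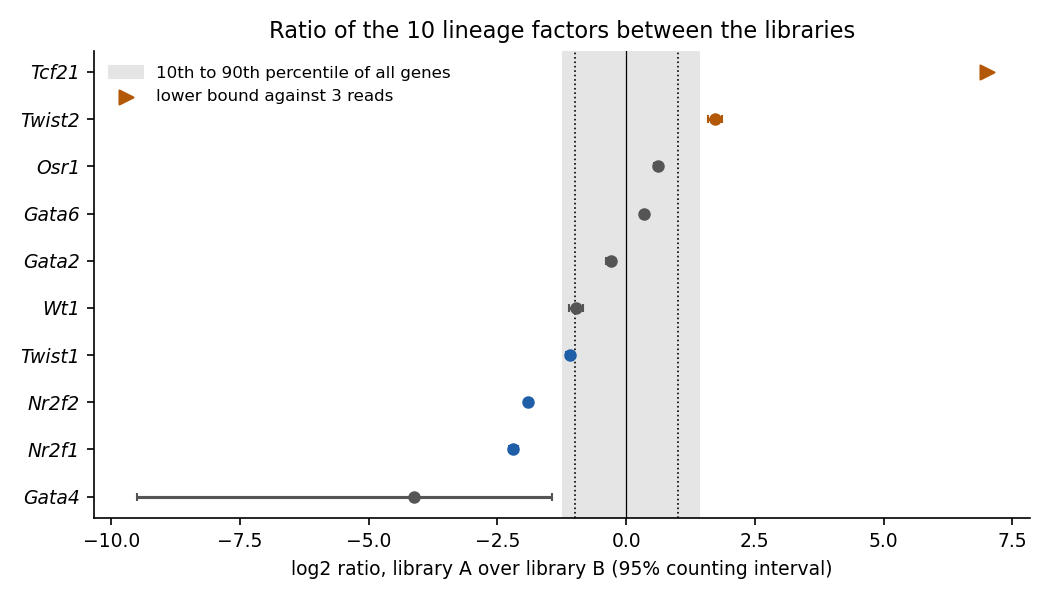
Log2 ratio of each factor, library A over library B, with 95% counting intervals. Orange marks factors called higher, blue those called lower and grey those without a call. The grey band spans the 10th to 90th percentile of all genes above the minimum (-1.24 to 1.42), and dotted lines mark 2-fold. Tcf21 is drawn as a lower bound. Nr2f1, Nr2f2, Twist2 and Tcf21 lie outside the band, as does Gata4, whose interval is wide.

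In the authors' deposited table, the shrunken log2 fold changes of the called factors were -1.77 (Nr2f1), -1.60 (Nr2f2), -0.96 (Twist1), 1.43 (Twist2) and 1.62 (Tcf21). The ratios of reads share these directions by construction, because the reads were recovered from the same deposited values. The standard errors in the authors' deposited table were 0.98, 0.92, 0.79, 0.94 and 1.19 in this order. The adjusted p in the authors' deposited table, from DESeq2 without replicates, was 0.999 for each of the 10 factors, and 0 genes of the table had an adjusted p under 0.05. By the unadjusted p of the authors' deposited table, 0 of the 10 factors and 427 of the 13221 genes with a mean above 0 (3.23%) were under 0.05.

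Lists of genes that work with these factors had most members within 2-fold. Over 5 lists of related regulators, 49 genes stood above the minimum, of which 9 (18.4%) were higher and 7 (14.3%) lower, with a median log2 ratio of -0.32. Over all genes above the minimum 13.9% were higher and 12.7% lower, with a median of 0.01, and the counts of these lists are given as a description and not as a result about any list. Among dimer partners, inhibitors and relatives of the bHLH factors, 3 of 10 were higher and 1 lower (median 0.01). Scx, a factor of tendon precursors, had 396 reads in library A and 1 read in library B (389-fold higher, interval 69.4 to 15399). Msc, or musculin, a close relative of Tcf21, was 6.32-fold higher, with 283 reads in library A and 44 in library B. Id4, an inhibitor of bHLH dimers, was 3.58-fold higher, and Hand2, a progesterone-regulated factor of the uterine stroma, was 2.72-fold lower. The E proteins, with which TWIST1 and TCF21 pair, had log2 ratios of -0.96 (Tcf3), -0.53 (Tcf4) and 0.03 (Tcf12). Hand1 and Tcf15 were listed at 0.

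Other GATA factors and cofactors had 1 of 6 members higher and 0 lower (median -0.35). The higher one was Gata5, with 366 reads in library A and 0 in library B. Against the floor of 3 reads it was 120-fold higher, with a lower interval limit of 96.95. The FOG cofactors of GATA factors had log2 ratios of -0.49 (Zfpm1) and 0.25 (Zfpm2), and Gata3 stood at -0.92. Relatives and partners of the COUP-TFs had 1 of 9 higher and 0 lower (median -0.34). That one was Bcl11b, also called CTIP2, a zinc finger protein that binds COUP-TFs. It had 152 reads in library A and 0 in library B (49.8-fold higher against the floor of 3 reads, lower interval limit 39.98). Nr2f6, the remaining member of the COUP-TF group, had 2228 reads in library A and 2281 in library B and a log2 ratio of -0.06.

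Factors of the mesenchymal state had 1 of 9 higher and 2 lower (median -0.32). Foxc2, a forkhead factor of mesenchyme and lymphatic vessels, was 10.3-fold lower, with 289 reads in library A and 2920 in library B. Snai1, a repressor of epithelial genes, was 4.61-fold lower, while the homeobox gene Prrx2 was 3.04-fold higher. The related genes Snai2, Zeb1, Zeb2 and Prrx1 had log2 ratios between -0.82 (Prrx1) and 0.54 (Snai2). Other regulators of the Mullerian duct and urogenital ridge had 3 of 15 higher and 4 lower (median -0.37). Six2, a factor of nephron progenitors, had 272 reads in library A and 0 in library B. Against the floor of 3 reads Six2 was 89.0-fold higher, with a lower interval limit of 71.9. Emx2, a homeobox gene without which the mouse urogenital tract does not form, was 8.29-fold lower, with 597 reads in library A and 4863 in library B. Osr2, the paralog of Osr1, was 7.97-fold lower, and Sall1, a zinc finger gene of kidney development, was 6.61-fold lower. Osr1 and Osr2 thus had ratios of opposite sign, as had Twist1 and Twist2, though Osr1 stayed within 2-fold. Lhx1, Pax2, Wnt7a and Wnt9b, which act in the duct epithelium, its forerunner or the neighbouring Wolffian duct, were listed at 0.

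**Figure D4:**
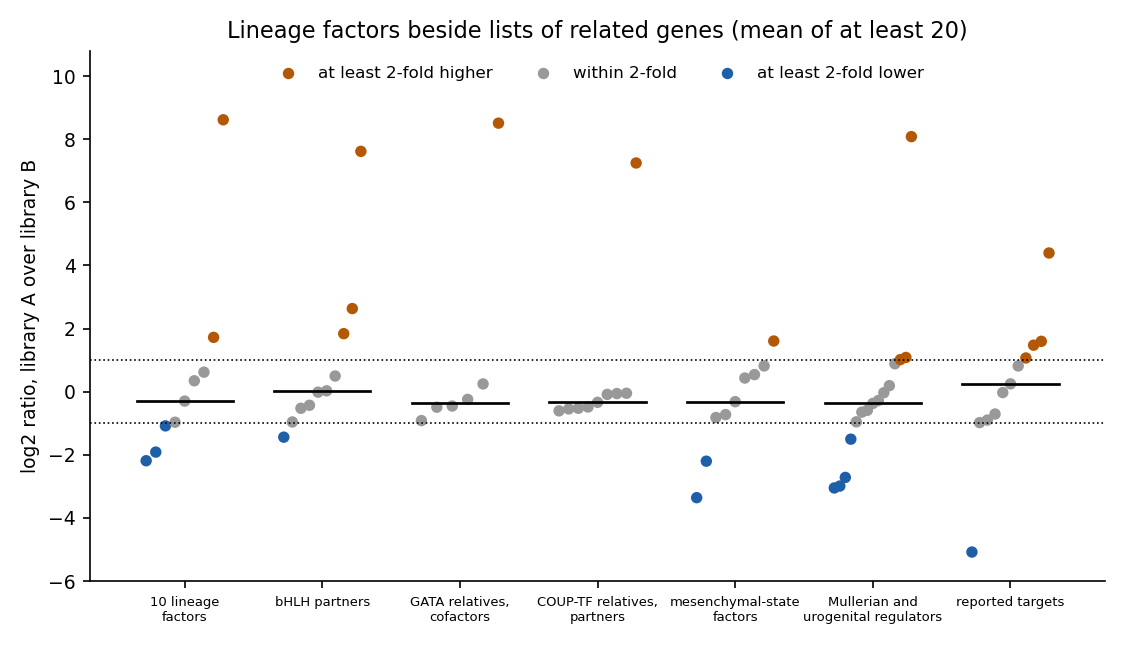
Log2 ratios, library A over library B, of the 9 factors above the minimum and of the related lists, 1 point per gene, with the median of each list as a black bar and dotted lines at 2-fold. Medians lie between -0.37 and 0.25, and single genes with 0 reads or 1 read in library B form the points above 7.

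Genes reported in other work as targets of these factors had 4 higher and 1 lower gene among 11, and their median was 0.25, beside 13.9% higher and 12.7% lower over all genes. The 4 higher genes became 2 with a minimum mean of 100 and 1 with a fold limit of 4. Cdh2, encoding N-cadherin, a reported TWIST1 target, was 33.9-fold lower, with 1008 reads in library A and 33529 in library B. Bmp4, a ligand reported under GATA control, had 63 reads in library A and 2 in library B (30.9-fold higher, interval 8.22 to 261). Star, a steroidogenic gene with GATA sites, was 3.07-fold higher. Pgr, the progesterone receptor gene that lies downstream of GATA2 in the mouse uterus, was 2.78-fold higher, while Gata2 lay within 2-fold. Postn, encoding the matrix protein periostin, stood at a log2 ratio of -0.90.

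The markers of other cell types also differed between the libraries, and their part in the values of the lineage factors was not tested. Over all genes above the minimum 13.9% were higher and 12.7% lower, and the counts of these short lists are given as a description. For some lists, sums are also given without the gene that was the largest part of the sum in library A or in library B. This alternative was chosen after the sums were seen. Pericyte markers had 5 of 6 lower and 0 higher, with summed normalised reads of 81380 in library A and 395077 in library B. The pericyte gene Rgs5, under the minimum, went the other way, with 22 reads in library A and 0 in library B. Without Abcc9, which made up 170176 of the library B sum, the sums were 81342 in library A and 224901 in library B. Endothelial markers had 4 of 5 lower and 1 higher (Tek). Their sums were 667 in library A and 8188 in library B, or 595 in library A and 2555 in library B without Esam. Fibroblast markers, relevant to Tcf21, had 2 of 5 higher (Lum and Fap) and 3 lower (Pdgfra, Dcn and Col1a1), with sums of 2561267 in library A and 6351739 in library B that were nearly all Col1a1, and of 4778 in library A and 9900.0 in library B without it. Mesothelial markers, relevant to Wt1, had 2 of 4 higher (Upk1b and Bnc1) and 2 lower (Msln and Krt19), with sums of 9789 in library A and 5960 in library B. Most of the library A sum was Upk1b, without which the sums were 1194 in library A and 5594 in library B. Msln had 1049 reads in library A and 5489 in library B, and Bnc1 had 145 in library A and 0 in library B. Blood markers had 1 of 4 higher (Cd68) and 3 lower, with sums of 296 in library A and 4632 in library B. Most of the library B sum was Was, without which the sums were 296 in library A and 399.6 in library B. Epithelial markers had 1 of 3 higher (Krt18) and 0 lower, with sums of 3031 in library A and 1566 in library B. Most of both sums was Krt8, with 2451 normalised reads in library A and 1444 in library B. Muc1 had 32 reads in library A and 53 in library B, and Epcam, under the minimum, 0 in library A and 7 in library B. Smooth muscle markers had 2 of 8 higher (Tagln and Actg2) and 0 lower, with sums of 1658818 in library A and 933770 in library B.

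The 5 listed genes on each side of every factor, in GRCr8 order, were also compared. Of 72 such neighbours above the minimum, 14 (19.4%) were higher and 5 (6.94%) lower, against 13.9% and 12.7% of all genes. Of the 14 higher and 5 lower neighbours, 10 had a ratio of the same sign as their factor and the rest the opposite sign. Next to Tcf21, Eya4, which encodes a transcriptional coactivator and phosphatase, had 732 reads in library A and 0 in library B (at least 240-fold higher). Further genes around Tcf21 were mixed, with Vnn1 100.3-fold and Sgk1 3.51-fold higher, the glucose transporter gene Slc2a12 10.5-fold lower, and Tbpl1, on the other side of Tcf21, within 2-fold. The gene next to Nr2f1, the arrestin-domain gene Arrdc3, was 3.60-fold lower, and the gene next to Nr2f2 on one side, Mctp2, was 5.38-fold lower. Arrdc4, next to Nr2f2 on the other side, was 1.92-fold higher. Among the other genes around Nr2f2, Synm (90.2-fold), Rgma (11.0-fold) and Igf1r (2.08-fold) were higher. All 7 neighbours of Twist2 above the minimum lay within 2-fold, and of 6 around Twist1 only Prkar2b passed it (16.3-fold lower). Around Osr1, Kcns3 (186-fold), Matn3 (9.33-fold) and Sdc1 (5.26-fold) were higher. The remaining called neighbours were Mpped2 near Wt1, Mgll near Gata2, Fdft1 and Fam167a near Gata4 and Ankrd29 near Gata6, all higher, and Cables1 near Gata6, which was lower.

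**Figure D5:**
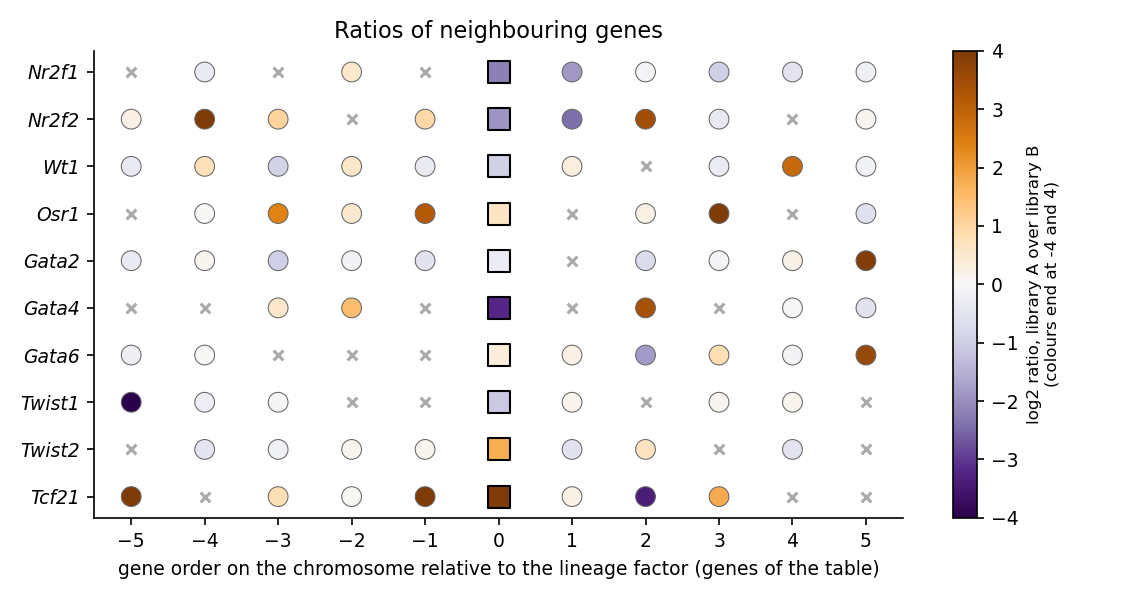
Log2 ratios, library A over library B, of the 5 genes of the table on each side of every factor (circles) and of the factor itself (squares). The horizontal axis is gene order, crosses mark genes under the minimum, and colours end at -4 and 4. Eya4 beside Tcf21, Arrdc3 beside Nr2f1 and Mctp2 beside Nr2f2 share the colour side of their factor. Arrdc4, on the other side of Nr2f2, and Synm, Rgma and Igf1r near it do not, and the circles around Twist2 are pale.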

How the data were processed

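RNA was sequenced as single 36 bp reads from 2 libraries, each of pooled myometrial progenitor cells, per the labels' protocols. TopHat, FastQC, SAMtools, featureCounts and DESeq2 with the builds rn4 and rn5 are named in the submitters' processing notes; no source used here gives their roles, versions or strand setting. The deposited mean, headed baseMean, was taken as a linear signal: read counts divided by size factors and averaged over both libraries. The header itself gives only the column name. The authors gave the fold change and its error as log2 values, which the recovered reads show to be shrunken towards 0. The statistic column, a score, and a raw and an adjusted p-value were also deposited by the authors.

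Every mean above 0 (13221 genes, with 4106 at 0) is a whole number of reads of each library times that library's step, which gave size factors of 1.01 (library A) and 0.991 (library B). For 9307 genes (70.4%), 8 of the 10 factors among them, 1 pair of whole numbers met the mean. For 3862 others, including Nr2f2 and Gata6, the pair chosen was the one for which a shrunken negative binomial fit met the deposited standard error, to within 3.44e-05 (log2). For 52 genes with a fold change under 0.01 in size the nearest ratio was taken. Tested on simulated data for this comparison, the recovery returned both reads for 4000 of 4000 genes, their fold changes being made with the same fit. Of these, 1295 had several possible pairs, and for the rest the mean alone fixed the pair. The size factors and the strength of shrinkage were taken from the real data. A pseudocount of 1 normalised read went into log2 ratios; folds in the text use none. A gene was called at a 2-fold ratio, a mean of at least 20 and a 95% interval that excluded 1. Each group had 1 library, so no test was run. Alternatives of scaling, minimum, pseudocount and fold limit, and the deposited fold change in place of the ratio, were tried.

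Promoters and gene order came from RefSeq's GRCr8 tables (14811 symbols of the table matched by name), and no coordinate was taken from the deposited file. The 10 factors and all lists were chosen with earlier results of these data known. All 10 factors are named, with up to 4 of the most changed called members of each related list, all called neighbours, and, chosen after their values were seen, other list members given by log2 ratio. The table holds 26 rows named by a calendar date, which were counted as genes and could not be matched. Python 3.11.15, numpy 2.4.6, scipy 1.17.1, pandas 2.3.3 and matplotlib 3.10.9 were used.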

Additional observations from a re-analysis of the deposited data

How the results depend on the processing

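The counts of 2 higher and 3 lower factors and the median of -0.30 moved by no more than 1.5 times under scaling by total reads, which shifts every log2 ratio by 0.0014, a minimum mean of 100 or the authors' deposited fold change, under which 2 factors were higher and 2 lower, since Twist1 stayed within 2-fold there. With a fold limit of 4, 1 factor was higher (Tcf21) and 1 lower (Nr2f1). With no minimum mean, 4 factors were lower, the fourth being Gata4 on 18 reads, and the median was -0.63. A pseudocount of 5 left the median at -0.30. No direction of the 10 factors turned, but these alternatives could hardly turn one. They shift ratios slightly, pull them towards 0, leave them unchanged or use the fold change from which the reads were recovered. Single log2 ratios left their counting interval in 6 of 10 factors by the deposited fold change, which is shrunken by construction, and in 1 of 10 with a pseudocount of 5. Of 26 counts over the related lists and cell type lists, an alternative added after seeing the data, 0 moved by over 1.5 times under scaling by total reads, 2 by the deposited fold change, 2 with no minimum, 5 with a minimum of 100 and 6 with a fold limit of 4. No paired analysis was possible because each group had 1 library. Counting error is small for all factors but Gata4, which had few reads, and Tcf21, which had 0 reads in library B.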

Other observations

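Among the 49 related regulators above the minimum, 3 had reads in library A only (Gata5, Bcl11b and Six2) and 0 in library B only, as Tcf21 did among the lineage factors. Over all 11212 genes above the minimum the same imbalance was seen, with 160 genes read in library A only and 21 in library B only. Lhx9 and Nr5a1, factors of the gonadal side of the urogenital ridge, stood under the minimum, with 0 and 2 reads in library A and 13 and 15 in library B. Gata4, which also acts in the mouse gonad, had 1 read in library A and 17 in library B. These 3 genes were set side by side after their values were seen. The steroidogenic gene Star went the other way, with 122 reads in library A and 39 in library B. Amhr2, of the Mullerian and urogenital list, had 5 reads in library A and 1 in library B.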
